A study of Mus musculus with 2 samples.

Results

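Dendritic cells were picked out of the single-cell RNA profiles of pancreatic tumours from KPPC mice by their transcripts. A cell counted as dendritic when it held at least 2 UMIs (unique molecular identifiers, each tagging 1 captured transcript) of Ccr7, Fscn1, Flt3, Xcr1, Clec9a and Zbtb46 together. At least 1.5% of its UMIs also had to come from the MHC class II genes H2-Aa, H2-Ab1, H2-Eb1 and Cd74. At most 2 UMIs of C1qa, C1qb and C1qc were allowed, and none of Cd79a, Cd3e or Epcam. The rule found 68 cells among 36662, of which 25 came from the vehicle library and 43 from the takinib library. Cells with Ccr7 or Fscn1 are called mature here (27 cells), cells with Xcr1 or Clec9a are called type 1 (26 cells), and 15 cells had a UMI of neither pair. No cell had UMIs of both pairs. Because these genes chose the cells, their own levels are given as a description only.

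Dendritic cells take up antigen, process it and show it to T cells. The conventional type 1 subset carries the chemokine receptor XCR1 and the dead-cell receptor CLEC9A, depends on the transcription factors IRF8 and BATF3, and is known for handing antigen from dying tumour cells to CD8+ T cells. On maturation, dendritic cells of any subset raise the chemokine receptor CCR7, which guides them to lymph nodes, and the actin-bundling protein fascin, encoded by Fscn1. Mature dendritic cells in tumours are known for the T cell attracting chemokines CCL17 and CCL22 and for co-stimulatory and inhibitory surface proteins. Takinib inhibits TAK1, the kinase encoded by Map3k7, which signals to NF-kB and to AP-1.

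KPPC mice are bred to develop ductal cancer of the pancreas; their alleles, the promoter that drives their recombinase and the number of mice per library are not given in the sources used here. Mice 6 weeks old received either vehicle or 50 mg/kg of takinib over 14 days, and cells were captured from digested tumours. Each condition has 1 library, so no test between conditions was possible, no p-value is given, and every difference below is a difference between 2 libraries. After the filters the vehicle library held 9872 cells with a median of 3594.5 UMIs, and the takinib library 26790 cells with a median of 3049.5. The median share of mitochondrial UMIs was 8.676% and 1.84%. The libraries also differed in the sex of their cells: of the dendritic cells, 9 vehicle cells had Y-linked UMIs without Xist and 2 had Xist without Y-linked UMIs, whereas 32 takinib cells had Xist alone and 0 had Y-linked UMIs alone. Treatment, sex and library cannot be told apart here. Among kept barcodes 400 occurred in both libraries, but 0 dendritic cells shared a barcode.

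The promoters of 2 genes that mark the subsets are shown because they hold letters that transcription factors of maturation and of the type 1 lineage are known to bind. They were chosen after the matches were seen. Both are RefSeq windows of 300 bases (250 before to 50 after the start of a transcript) in GRCm38.p6, and capitals mark the matches. Tnfrsf9, with UMIs in mature cells and none in type 1 cells of either library, is shown at chr4:150927749-150928048 on the plus strand, where capitals mark 2 overlapping matches to the kappaB consensus and 1 match to the AP-1 site TGANTCA. A second window of Tnfrsf9, chr4:150919905-150920204, held no match. Ifi205, from the type 1 gene list and 1 of a family of similar genes, had 529 CPM (UMIs scaled to a common total) in type 1 vehicle and 453 CPM in type 1 takinib cells, and is shown at chr1:174031706-174032005 on the minus strand, where capitals mark 2 matches to the interferon regulatory factor repeat (GAAA, any 2 bases, GAAA), 1 of them on the opposite strand.
Tnfrsf9 promoter: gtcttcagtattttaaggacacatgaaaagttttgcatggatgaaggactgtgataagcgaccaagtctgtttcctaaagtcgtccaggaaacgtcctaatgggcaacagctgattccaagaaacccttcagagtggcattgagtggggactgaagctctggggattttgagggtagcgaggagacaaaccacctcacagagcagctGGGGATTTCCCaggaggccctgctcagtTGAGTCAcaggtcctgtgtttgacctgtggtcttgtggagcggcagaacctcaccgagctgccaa
Ifi205 promoter: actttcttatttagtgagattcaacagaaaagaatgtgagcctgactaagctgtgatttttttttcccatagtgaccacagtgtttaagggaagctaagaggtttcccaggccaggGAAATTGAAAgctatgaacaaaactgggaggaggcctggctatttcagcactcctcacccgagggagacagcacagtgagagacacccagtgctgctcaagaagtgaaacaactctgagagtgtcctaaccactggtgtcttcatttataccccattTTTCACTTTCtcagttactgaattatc
Over all 32851 promoter windows of the table, 8.46% held the kappaB consensus on either strand, 7.81% the AP-1 site and 3.44% the interferon repeat. Among 33 windows of the genes higher in mature cells in both libraries, the kappaB consensus was found in 6 (18.2%) and the AP-1 site in 7 (21.2%). Among 17 windows of the genes lower in mature cells, the kappaB consensus was found in 3 (17.6%) and the AP-1 site in 2 (11.8%). The interferon repeat was found in 1 of the 33 (3.03%) and 0 of the 17. Among 29 windows of the mature programme list, the kappaB consensus was found in 3 (10.3%), the AP-1 site in 0 and the interferon repeat in 2 (6.9%). Among 17 windows of the type 1 list these were 1 (5.88%), 0 and 2 (11.8%). A match describes the letters of a window and says nothing of binding.

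Dendritic cells were rare in both tumours. They made up 0.253% of kept vehicle cells (95% exact Clopper-Pearson interval 0.164 to 0.374) and 0.161% of kept takinib cells (0.116 to 0.216), and these intervals overlap. Intervals in this text cover counting error only, not differences between animals or captures. Mature cells were 13 of 25 dendritic cells in vehicle, or 52% (31.3 to 72.2), and 14 of 43 in takinib, or 32.6% (19.1 to 48.5). Type 1 cells were 8 of 25 in vehicle, or 32% (14.9 to 53.5), and 18 of 43 in takinib, or 41.9% (27 to 57.9). The intervals of the 2 libraries overlap for each subset.

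Depth bore on these shares. The dendritic cells had a median of 3018 UMIs in vehicle and 4712 in takinib, and type 1 cells were deeper than mature cells in both libraries, with medians of 3908 against 2395 in vehicle and 5425 against 3768 in takinib. With every kept cell thinned to 1000 UMIs the rule still found 16 vehicle and 17 takinib cells, 0.162% and 0.0635% of the kept cells. Mature cells were then 12 of 16 (75%) and 11 of 17 (64.7%), and type 1 cells 2 of 16 (12.5%) and 5 of 17 (29.4%). After thinning, mature cells outnumbered type 1 cells in both libraries, whereas the unthinned takinib library held more type 1 than mature cells. Of the thinned cells of these 2 subsets, 85.7% (57.2 to 98.2) were mature in vehicle and 68.8% (41.3 to 89) in takinib. Thinning also removed UMIs of the rule's own genes, so cells with few of them were lost more easily. These numbers therefore do not give the make-up of the unthinned cells corrected for depth.

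The limits of the rule passed through populations of cells rather than around them. The members nearest the class II limit had a class II share of 1.51% in both libraries, and the nearest cells outside it 1.45% in vehicle and 1.48% in takinib. At the lower bound of 2 dendritic UMIs stood 5 vehicle and 9 takinib members, while 10 and 26 cells with 1 such UMI passed every other limit. A further 14 vehicle and 11 takinib cells exceeded only the C1q limit.

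The class II limit kept nearly all cells with type 1 genes and a minority of those with mature genes. These genes belong to the rule, so the values describe how it cut the cells. When the class II limit was dropped, cells with at least 2 UMIs of Xcr1 and Clec9a numbered 8 in vehicle and 18 in takinib. Their median class II share was 4.86% and 4.38%, and 8 of 8 and 16 of 18 stood at or over the limit. Cells with both Ccr7 and Fscn1 numbered 31 in vehicle, with a median class II share of 0.768%, and 18 in takinib, with a median of 0.185%. Only 9 of the 31 and 8 of the 18 reached the limit. The shares of both kinds of cell overlapped, at 0 to 4.15% against 2.88 to 7.14% in vehicle and 0 to 6.34% against 0.116 to 8.82% in takinib. In takinib these cells formed 2 bands, with 10 cells under 0.5%, 0 from there to the limit and 8 above it, whereas vehicle had 14, 8 and 9.

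**Figure D1:**
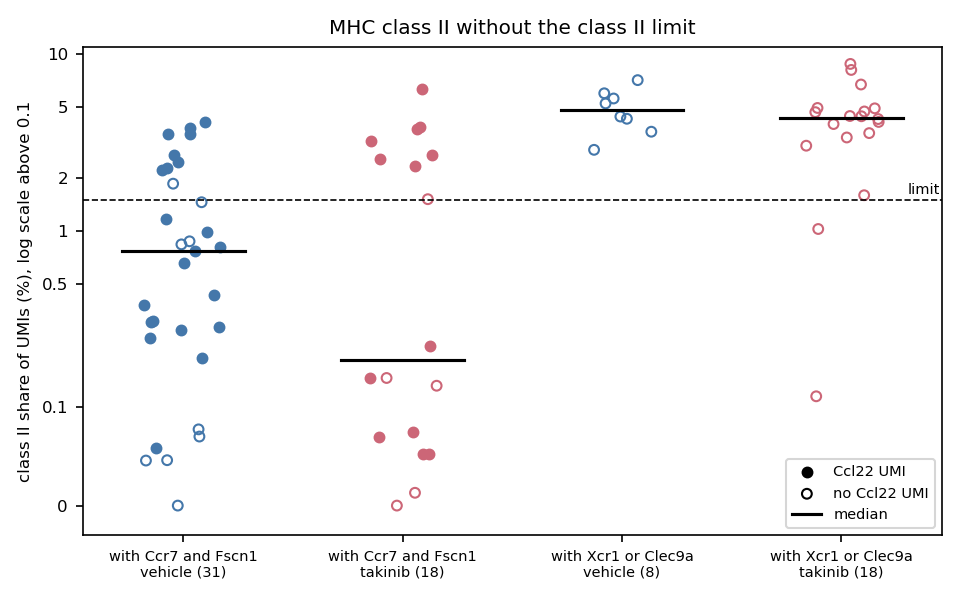
Share of each cell's UMIs from the 4 class II genes (vertical axis, percent, logarithmic above 0.1) for cells selected without the class II limit, by library; filled points had a Ccl22 UMI, bars are medians and the dashed line is the limit of 1.5%. Cells with Xcr1 or Clec9a (at least 2 UMIs) cluster above the line, whereas 22 of 31 vehicle and 10 of 18 takinib cells with Ccr7 and Fscn1 lie below it.

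Many of the cells below the limit carried the maturation chemokines. Ccl22 was found in 22 of the 31 vehicle and 13 of the 18 takinib cells with Ccr7 and Fscn1. In vehicle, Ccl22 stood at 1321 CPM (the gene's share of the summed UMIs, scaled to a common total) in the cells under the limit and at 2257 CPM in those over it, and Ccl5 at 3277 and 2257 CPM. In takinib, Ccl22 stood at 301 CPM under the limit and 2348 CPM over it, and Ccl5 at 4726 and 4368 CPM. Ccl5, a chemokine also made by T cells, was thus at a higher level under the limit in vehicle, with overlapping 95% exact Poisson intervals (2829 to 3776 and 1691 to 2953 CPM), and at nearly the same level in takinib, where the intervals overlap widely (4192 to 5310 and 3718 to 5100 CPM), while Ccl17 was lower under the limit, at 789 against 4259 CPM in vehicle and 301 against 2539 CPM in takinib. Lowering the class II limit to 0.1% raised the mature cells from 13 to 58 in vehicle and from 14 to 29 in takinib. The type 1 cells stayed at 8 in vehicle and went from 18 to 22 in takinib. The number of mature cells in each library therefore rested on this limit. Cst3 stood at 8768 CPM under the limit and 12693 CPM over it in vehicle, and at 6146 and 17282 CPM in takinib. Cacnb3, a calcium channel subunit from the mature list, stood at 789 and 341 CPM in vehicle and 434 and 601 CPM in takinib, and Tmem123 at 841 and 1022 CPM and at 718 and 1611 CPM. H2-DMa had 2 UMIs under the limit in each library, 34.3 and 33.4 CPM, against 256 and 246 CPM over it. The cells under the limit thus carried several genes of mature cells but little of this class II chain. Whether they are dendritic cells was not tested.

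The transcripts outside the rule matched the label. Cst3, the protease inhibitor cystatin C, which is abundant in dendritic cells, was found in 92% of vehicle and 97.7% of takinib members, at 17402 and 17827 CPM. In class II positive C1q macrophages of the same libraries it stood at 2646 and 2564 CPM, and in B cells at 314 and 316 CPM. Ccl22 was at 645 CPM in vehicle and 531 CPM in takinib dendritic cells, against 1.15 and 5.26 CPM in macrophages and 0 UMIs in B cells of either library. Itgae, the integrin chain CD103 of type 1 cells, was at 219 and 303 CPM, against 1.01 and 0.584 CPM in macrophages. Apoe, an abundant macrophage transcript, was at 499 and 139 CPM, against 17972 and 14019 CPM in macrophages. The 2 kinds of cell were chosen by opposite C1q limits, which bears on the Apoe values. Other genes stood closer in takinib. Fabp5 was at 1802 and 910 CPM against 311 and 829 CPM in macrophages, and Ccl5 at 645 and 901 CPM against 10.4 and 690 CPM. H2-DMa was at 536 and 640 CPM against 1002 and 547 CPM, so it was lower than in macrophages in vehicle. The median depth of these macrophages was 4088 and 5392 UMIs, close to that of the dendritic cells, while B cells had 1392 and 1389.

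Markers of other lineages were uneven in both libraries. The 5 T and NK markers (Cd3d, Cd3g, Trbc2, Ncr1, Nkg7) were all at 0 in vehicle members and summed to 8.42 CPM in takinib members. Of the macrophage markers, Adgre1 and Fcgr1 were at 0 in vehicle members and Mertk was at 0 in takinib members, but Apoe had 30 UMIs in 11 of 13 mature vehicle cells, 909 CPM, and 5 UMIs in 4 of 14 mature takinib cells. Csf1r had 2 UMIs in mature cells of each library. The summed monocyte markers stood at 353 CPM in the vehicle members, with UMIs in 12 of 25 cells, and at 1293 CPM in the takinib members, in 39 of 43 cells, or at 800 CPM in takinib without the cells rich in S100 or haemoglobin transcripts described next. Of the 5 plasmacytoid markers, Siglech, Ly6d, Cox6a2 and Ccr9 were at 0 in vehicle, and the list summed to 110 and 168 CPM. The 5 neutrophil markers (S100a8, S100a9, Retnlg, Cxcr2, Csf3r) summed to 60.9 CPM in the vehicle members but 11253 CPM in those from takinib. S100a8 and S100a9 encode the calcium-binding proteins that fill neutrophils.

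The neutrophil transcripts were spread over nearly all takinib members and concentrated in a few. No vehicle member had more than 1 UMI of S100a8 and S100a9, whereas takinib members had 0 to 735, with a median of 5. In 5 takinib members, 3 of them type 1 and 2 with neither pair, these genes made up at least 2% of UMIs, and 1 further cell with neither pair was rich in haemoglobin. The type 1 cells held 15986 CPM of the neutrophil list and the mature cells 1670 CPM. The other cells of the library carried them too: S100a8 had a UMI in 87.2% of takinib B cells, at 4242 CPM, and in 83.8% of takinib T cells, at 1854 CPM, against 6.25% and 4.55% in vehicle. The level in mature takinib cells, 844 CPM of S100a8, was below that in B cells. For several genes of takinib type 1 cells, values without the S100-rich cells are added below.

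**Figure D2:**
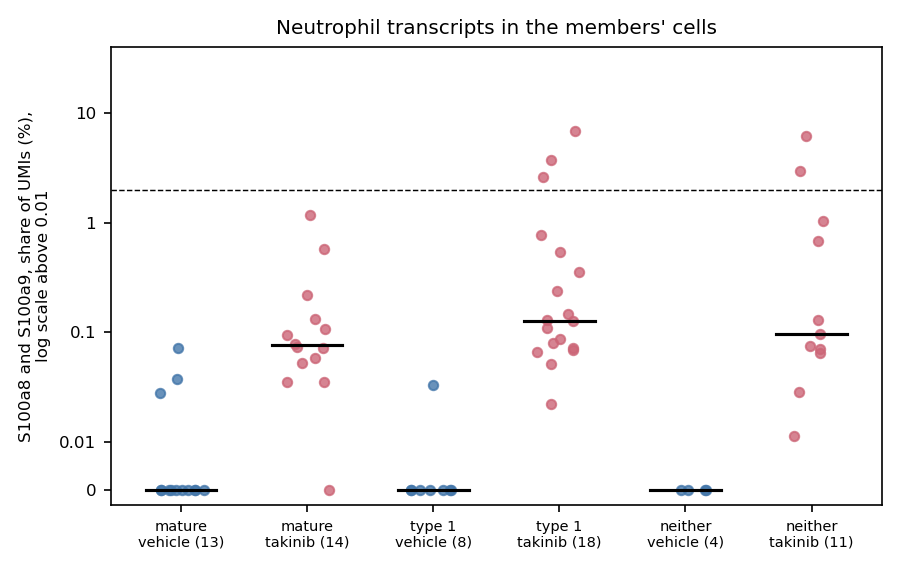
Share of each dendritic cell's UMIs from S100a8 and S100a9 (vertical axis, percent, logarithmic above 0.01) by subset and library, with bars at the medians and a dashed line at 2%. Vehicle cells lie at or near 0, nearly all takinib cells lie above them, and 5 takinib cells lie above the line.

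Mature and type 1 cells were compared within each library, and genes that differed the same way in both were counted. UMIs were summed per subset and library, and a gene was compared when it had at least 20 UMIs in either subset of each library. Ratios are log2 of CPM plus 10 over CPM plus 10, so changes of low genes are understated. Of 241 genes compared, 29 (12.0%) were more than 2-fold higher in mature cells in both libraries and 17 (7.05%) more than 2-fold lower, while 2 went past 2-fold in opposite directions. A further 39 were past 2-fold in 1 library only, 27 of them in vehicle and 12 in takinib. The median log2 ratio of all 241 genes was 0.17 in vehicle and -0.02 in takinib. The subsets were cut by the rule, so these counts describe what went along with Ccr7, Fscn1, Xcr1 and Clec9a.

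Ccl22, Ccl5 and Ccl17 were among the genes with the highest ratios of mature over type 1 cells. Ccl22, which attracts T cells that carry CCR4, had 53 UMIs in 8 of 13 mature vehicle cells and 126 UMIs in 11 of 14 mature takinib cells, against 0 in type 1 cells of either library. Set against a floor of 3 counts over the type 1 cells, it was at least 17.2-fold higher in vehicle and at least 83.1-fold higher in takinib. Ccl17, which lies close by on chromosome 8 and encodes a ligand of the same receptor, had 132 and 189 UMIs in mature cells against 2 and 11 in type 1 cells, log2 ratios of 5.79 (95% exact interval 4.12 to 9.07) and 4.95 (4.22 to 6.11). Ccl22 lies at 94745590 to 94751699 and Ccl17 at 94810453 to 94812036, both on the plus strand of GRCm38. Ccl5 had 53 and 183 UMIs against 0 and 5, at least 17.2-fold in vehicle and a log2 ratio of 5.89 in takinib. Of 16 chemokines listed, 4 had counts enough to compare, Ccl17, Ccl22, Ccl5 and Cxcl16, and all 4 were higher in mature cells of both libraries. In vehicle these 4 had under 20 UMIs in type 1 cells and entered through mature cells, so the filter fixed their direction there. The share of genes higher in both libraries over all 241 compared was 12.0%.

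Other genes higher in mature cells encode enzymes, carriers and surface proteins. Il4i1, a secreted amino acid oxidase that restrains T cells, had 23 and 52 UMIs in mature cells and 0 in type 1 cells of either library, at least 7.46-fold and at least 34.3-fold higher. Fabp5, a fatty acid carrier, had 132 and 191 UMIs against 4 and 2, with log2 ratios of 4.90 and 6.92. S100a4, a calcium-binding protein of motile cells, had 104 and 136 UMIs against 0 and 4. It was found in 13 of 13 mature vehicle and 13 of 14 mature takinib cells. Tmem123, a surface mucin-like protein, had 30 and 74 UMIs against 0 and 2. Tnfrsf9, the co-stimulatory receptor 4-1BB, had 37 and 23 UMIs against 0 and 0, at least 12-fold and at least 15.2-fold higher. Of 36 genes listed for the mature programme, 8 could be compared and 8 were higher in both libraries: Ccl22, Ccl17, Ccl5, Il4i1, Tmem123, Marcksl1, Marcks and Fabp5. In vehicle, all 8 had under 20 UMIs in type 1 cells and entered through mature cells, so their direction there was fixed by the filter. Over all 241 genes compared, 29 (12.0%) were higher in both libraries. Of 11 migration and cytoskeleton genes compared, 2 were higher (Marcks and Marcksl1) and 0 lower, with a median of 0.52.

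The further genes called higher differed by less. Bcl2a1b, an inhibitor of apoptosis with near-identical copies that counting may split, had 77 and 158 UMIs against 3 and 52, log2 ratios of 4.50 and 2.56. Cxcl16, a chemokine that is also a scavenger receptor, was higher by 3.41 and 2.62 on the log2 scale. Tmem176b was higher by 4.04 and 3.06, Cd63 by 3.23 and 2.00, Btg1 by 2.95 and 2.26, Marcksl1 by 2.64 and 2.38, and Zfp36l1 by 2.42 and 2.06. With S100a4, Fabp5 and Cxcl16 these were the 8 leading genes in which no single cell gave more than 25% of the UMIs. That condition set aside 15 of the genes called higher, Ccl22 and Ccl17 among them, and 11 of those called lower. Psme2, a proteasome activator subunit, was the 1 gene past 2-fold of 6 class I presentation genes compared, at 1.72 and 1.87.

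Irf8 and other genes of the type 1 list were lower in mature cells. Irf8, the lineage factor, had 49 UMIs in 8 of 8 type 1 vehicle cells and 141 in 17 of 18 type 1 takinib cells, against 4 and 5 UMIs in mature cells, log2 ratios of -3.55 (-5.59 to -2.21) and -3.69 (-5.48 to -2.58). Naaa, a lysosomal amidase used as a type 1 marker, had 64 and 107 UMIs in type 1 cells and 1 and 0 in mature cells. Wdfy4, which is needed for cross-presentation by type 1 cells, had 30 and 88 UMIs against 1 and 1. Ppt1, a lysosomal thioesterase, had 37 and 144 UMIs against 2 and 2. All these pairs stood far apart in both libraries. Of 21 type 1 genes listed, 6 could be compared, 4 were lower in mature cells (Irf8, Naaa, Ppt1, Wdfy4) and 0 higher. These 4 had under 20 UMIs in mature cells of both libraries and entered through type 1 cells, so their direction was fixed by the filter. Over all 241 genes compared, 17 (7.05%) were lower in both libraries. Cst3 was lower by 1.01 in vehicle and 0.74 in takinib on the log2 scale, and Id2, which is also used by other subsets, was higher in mature cells by 1.37 in vehicle and lower by 0.57 in takinib. The antigen presentation lists gave few calls. Of 3 class II accessory genes compared 1 was lower (H2-DMa), with a median of 0.39, and of 6 class I genes 0 were lower, with a median of 0.28.

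The other named genes lower in mature cells were Plbd1, Mpeg1, Ifngr1 and H2-DMa. Plbd1, a lysosomal phospholipase, was lower in mature cells by 4.04 in vehicle and 3.07 in takinib, and Mpeg1, the pore former perforin-2, by 3.29 in each library. Ifngr1, a chain of the interferon-gamma receptor, was lower by 2.72 and 2.15, and H2-DMa, a peptide-loading chain of class II, by 1.70 and 1.06. Lysosomal genes went both ways, since the protease gene Ctsz was higher in mature cells by 1.62 and 1.52 and the membrane protein gene Lamp1 by 4.10 and 2.51. Itgae was too sparse for the comparison, with 16 and 65 UMIs in type 1 cells, but had 0 UMIs in mature cells of either library, at least 5.48-fold and at least 10.9-fold lower. Irf8 in macrophages stood at 168 and 140 CPM, above its level in mature cells, 121 and 87.9 CPM.

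**Figure D3:**
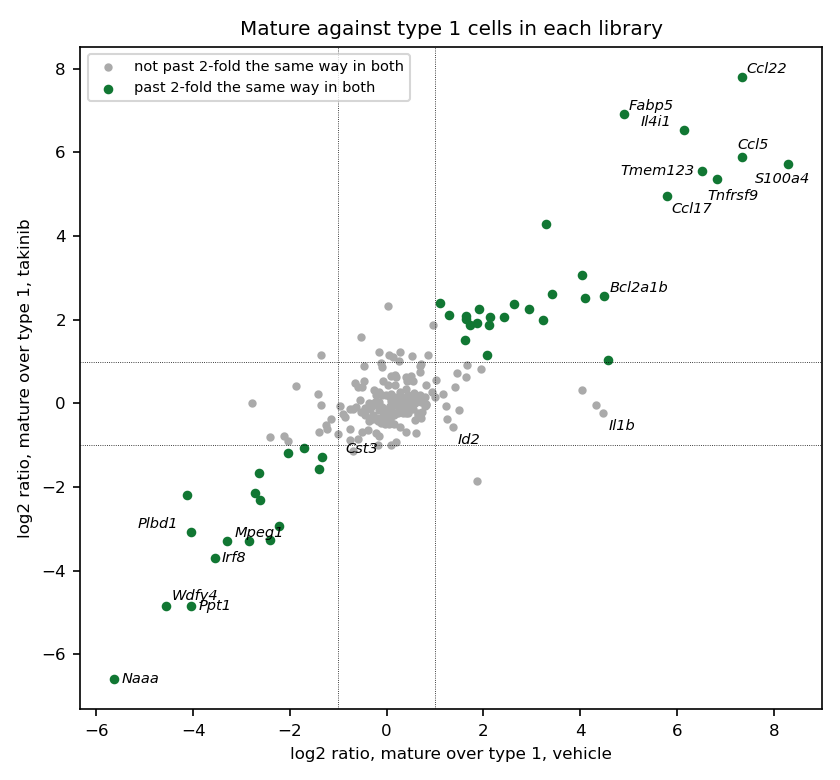
Log2 ratio of mature over type 1 cells in vehicle (horizontal) and takinib (vertical) for the 241 genes compared; green points were past 2-fold the same way in both libraries and dotted lines mark 2-fold. Ccl22, Fabp5, Il4i1 and S100a4 lie far up the diagonal and Naaa, Wdfy4, Ppt1 and Irf8 far down it, while Il1b lies at 4.48 in vehicle and -0.23 in takinib.

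The chemokine and lineage genes also varied among cells of 1 subset. Ccl22 ranged per cell from 0 to 5052 CPM with a median of 466 in mature vehicle cells, and from 0 to 6409 CPM with a median of 1613 in mature takinib cells. Ccl5 was found in 5 of 13 and 10 of 14 mature cells, and the cell richest in it gave 41.5% and 48.6% of its UMIs. Fabp5 was more even, in 12 of 13 and 13 of 14 cells, with medians of 2930 and 3349 CPM. In type 1 cells, Xcr1 was found in 7 of 8 and 14 of 18 cells, Clec9a in 7 of 8 and 15 of 18, and Itgae in 5 of 8 and 13 of 18. Sparse genes such as Batf3, with 3 UMIs in vehicle and 20 in takinib type 1 cells, could not be read cell by cell at this depth.

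**Figure D4:**
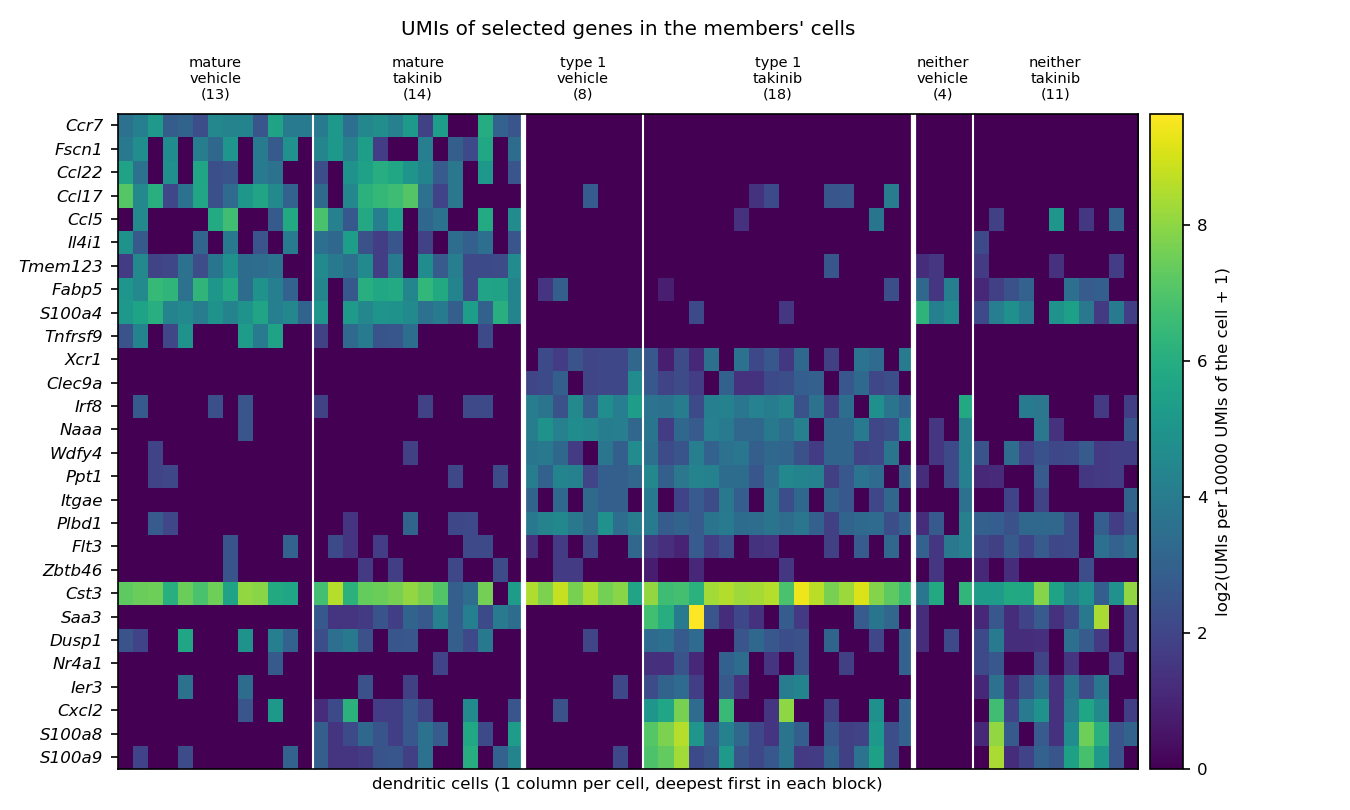
UMIs, scaled to a common depth, of each of the 68 dendritic cells (columns, grouped by subset and library, cell numbers in brackets) for the selected genes (rows), coloured as log2 of the value plus 1. The mature blocks fill the rows from Ccl22 to Tnfrsf9, the type 1 blocks those from Irf8 to Plbd1, and the takinib blocks those of Saa3, Cxcl2, S100a8 and S100a9.

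The 15 cells with neither pair were held by Flt3, the receptor for the growth factor that drives dendritic cell development, and by Zbtb46. Flt3 had 13 UMIs in 4 of 4 vehicle cells and 31 UMIs in 10 of 11 takinib cells. S100a4 was found in 3 of 4 and 10 of 11 of them, at 4120 and 1516 CPM, and Ccl22 and Ccl17 had 0 UMIs in both libraries. Cst3 stood at 3120 and 7153 CPM, below both other subsets. Irf8 was found in few of these cells. Its 10 UMIs in vehicle came from 1 cell, which also had 3 UMIs of Naaa and 2 of Itgae. In takinib, 4 of 11 cells had Irf8, and 1 of them had 9 UMIs each of Irf8 and Naaa. The 5 type 2 markers (Cd209a, Sirpa, Irf4, Mgl2, Clec10a) summed to 412 CPM in vehicle, with UMIs in 3 of 4 cells, and to 265 CPM in takinib, in 7 of 11 cells, against 62.3 and 71 CPM in type 1 cells and 424 and 685 CPM in mature cells. Sirpa, which other myeloid cells also express, gave 6 and 10 of these UMIs, Cd209a gave 1 and 2, and Mgl2 gave 0 in both. The 5 monocyte markers (Ly6c2, Ccr2, Plac8, Chil3, Vcan) summed to 706 CPM in 3 of 4 vehicle cells and 1678 CPM in 11 of 11 takinib cells, mostly from Plac8. Siglech of plasmacytoid cells was found in 0 vehicle and 1 takinib cell. These cells were given no subset name.

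Between the libraries, mature cells had the same leading chemokines. Their gate genes stood at 1636 CPM in vehicle and 2021 CPM in takinib for Ccr7 and at 1333 and 1599 CPM for Fscn1. Ccl22 was at 1606 CPM (95% exact Poisson interval 1203 to 2101) in vehicle and 2214 CPM (1845 to 2636) in takinib, a log2 ratio of 0.46 (-0.01 to 0.95). Ccl17 was at 4000 and 3321 CPM, a log2 ratio of -0.27 (-0.60 to 0.06). Ccl5 was at 1606 and 3216 CPM, a log2 ratio of 1.00 (0.55 to 1.47), with 48.6% of the takinib UMIs in 1 cell. Il4i1 was at 697 and 914 CPM and Fabp5 at 4000 and 3357 CPM, with intervals of the ratio that include no change. Of the 36 mature programme genes, 18 could be compared in this contrast, 2 were past 2-fold higher in takinib (Socs2 and Apol7c) and 0 lower, with a median log2 ratio of 0.42. Socs2 and Apol7c had 4 and 1 UMIs in vehicle and entered only through takinib, so their direction was fixed by the filter. Over all 376 genes compared in mature cells, 54 (14.4%) were more than 2-fold higher in takinib and 19 (5.05%) more than 2-fold lower, with a median of 0.22. Most of the lower genes were mitochondrial transcripts, at log2 ratios of -3.13 to -1.53. The median mitochondrial share of all kept cells also differed, at 8.676% in vehicle and 1.84% in takinib.

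The counts over all genes leaned on the filter and on single cells. Centred on the median, 43 genes were higher in takinib and 25 lower. The takinib cells held 56903 summed UMIs and the vehicle cells 33003, so a gene could more easily reach 20 UMIs through takinib. With a filter on the mean level in place of the count, set after the data were seen, 10 genes were higher and 17 lower. The share of higher genes thus followed the filter, and a single cell gave over 25% of the takinib UMIs in 26 of the 54. In 51 of the 54 the vehicle cells had under 20 UMIs, so these genes entered only through takinib. Socs2, a feedback inhibitor of cytokine signalling, had 4 and 21 UMIs, 121 and 369 CPM, a log2 ratio of 1.53 (0.04 to 3.61). Cd83, a maturation marker that stabilises class II at the surface, had 8 and 38 UMIs, 242 and 668 CPM, a log2 ratio of 1.43 (0.34 to 2.77). With so few UMIs in vehicle, Socs2 and Cd83 entered only through takinib, so their direction was fixed by the filter.

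The genes of NF-kB feedback that could be compared were within 2-fold in mature cells, and 2 of 3 were past it in type 1 cells. Map3k7 itself had 0 UMIs in mature vehicle cells and 3 in mature takinib cells, and 1 and 0 in type 1 cells, which is too few to compare. Of 24 genes of NF-kB feedback and survival, 7 could be compared in mature cells, with 0 higher and 0 lower and a median log2 ratio of 0.25. Nfkbia, the inhibitor that NF-kB itself induces, was at 697 and 1336 CPM, a log2 ratio of 0.93 (0.25 to 1.68). Relb, an NF-kB subunit that marks maturation, was at 394 and 404 CPM, a log2 ratio of 0.04 with an upper bound of 1.14. Bcl2a1b was at 2333 and 2777 CPM and Traf1 at 394 and 650 CPM. With 13 and 14 cells a 2-fold higher level of Relb lies within counting error and was not detectable at this depth. In type 1 cells 3 genes of the list could be compared, and 2 were past 2-fold higher in takinib with 0 lower, both of which reached 20 UMIs in takinib only. Nfkbia had 8 and 90 UMIs, 249 and 799 CPM, a log2 ratio of 1.64, which was 0.71 (-0.42 to 2.07) without the S100-rich cells. Bcl2a1b had 3 and 52 UMIs, 93.4 and 462 CPM, a log2 ratio of 2.19, and 2.08 without those cells.

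Surface proteins that act on T cells gave mixed values. Tnfrsf9 had 37 UMIs in 7 of 13 mature vehicle cells and 23 UMIs in 7 of 14 mature takinib cells, 1121 and 404 CPM, a log2 ratio of -1.45 (-2.29 to -0.68). It had the lowest ratio once mitochondrial transcripts and genes with over 25% of UMIs in 1 cell were left out. The mitochondrial transcripts compared were at -1.53 or lower. Among the genes with such a cell, Apoe was at -3.23. With cells thinned to 1000 UMIs the ratio of Tnfrsf9 was -0.04, with at least 2000 UMIs per cell -0.96, without any C1q UMI -0.89, and with class II limits of 0.5% and 0.1% -0.53 and -0.77, so it stayed past 2-fold in 11 of 16 alternatives. Cd274, the checkpoint ligand PD-L1, was at 394 and 299 CPM, a log2 ratio of -0.39 (-1.53 to 0.76). Cd40, which receives help from T cells, had 3 and 14 UMIs, and Cd80 had 6 and 12. Il12b, a cytokine subunit by which dendritic cells drive helper T cells, had 0 UMIs in mature cells of either library. The other named genes lower in takinib were Chchd2 (-1.22) and Atp5j2 (-1.16), which encode mitochondrial proteins, Prkcd (-1.16) and the chaperone gene Hsp90ab1, with levels of 334 to 931 CPM in takinib and 758 to 1879 CPM in vehicle. Over the same alternatives Chchd2 stayed past 2-fold in 15, Atp5j2 in 13, Prkcd in 12 and Hsp90ab1 in 10.

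The interferon-induced genes Isg15, Ifitm1 and Ifitm3 had more UMIs in mature takinib cells. For Isg15 and for Ifitm1, 1 cell gave over 25% of the takinib UMIs. Isg15, an ubiquitin-like protein induced by interferon, had 0 UMIs in 13 vehicle cells and 29 UMIs in 7 of 14 takinib cells, but 44.8% of them lay in 1 cell. Ifitm1 had 2 and 107 UMIs, and Ifitm3 had 3 UMIs in 3 cells and 37 UMIs in 9 cells, a log2 ratio of 2.71 (1.18 to 5.18). All 3 genes had 0 to 3 UMIs in vehicle and entered only through takinib, so their direction was fixed by the filter. Isg15 was at 510 CPM in mature takinib cells against 23.3 CPM in B cells, 41.8 CPM in T cells and 71.3 CPM in macrophages of the library. Ifitm1 was at 1880 CPM against 395, 348 and 811 CPM. When the class II limit was lowered to 0.5% the ratio of Ifitm3 became -0.91.

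Saa3 led the named genes higher in takinib, and it stood higher still in other cells of that library. This acute-phase protein had 0 UMIs in 13 mature vehicle cells and 35 UMIs in 14 of 14 mature takinib cells, 615 CPM, at least 6.77-fold higher. In takinib B cells it was found in 86.3% of cells at 1673 CPM, and in T cells in 82.1% at 5170 CPM, against 44.9 and 28.1 CPM in vehicle, and takinib macrophages had 4766 CPM. The mature cells thus held less Saa3 than B cells, T cells and macrophages of the same library. The further named genes were Cirbp (3.23), Ifitm3, Clic1 (2.55), Rab8b (2.26), Sumo2 (2.11), Sh3glb1 (1.97) and Itga4 (1.96), each with 1 to 6 UMIs in vehicle and 21 to 42 in takinib. Saa3 and these genes entered the comparison only through takinib, so their direction was fixed by the filter. With cells thinned to 1000 UMIs the ratio of Clic1 turned to -4.70 and that of Sh3glb1 was 0.12. With a class II limit of 0.1%, Clic1 was at 0.46, Rab8b at 0.49, Sumo2 at 0.62 and Sh3glb1 at 0.39, while Cirbp and Itga4 stayed past 2-fold in all 16 alternatives. Cirbp was also higher in takinib B cells, at 242 against 44.9 CPM. Apoe went the other way, from 909 CPM in vehicle to 87.9 CPM in takinib mature cells, a log2 ratio of -3.23. The C1q macrophages that carry Apoe numbered 1588 of 9872 kept cells in vehicle and 279 of 26790 in takinib, and their part in the Apoe difference was not tested.

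**Figure D5:**
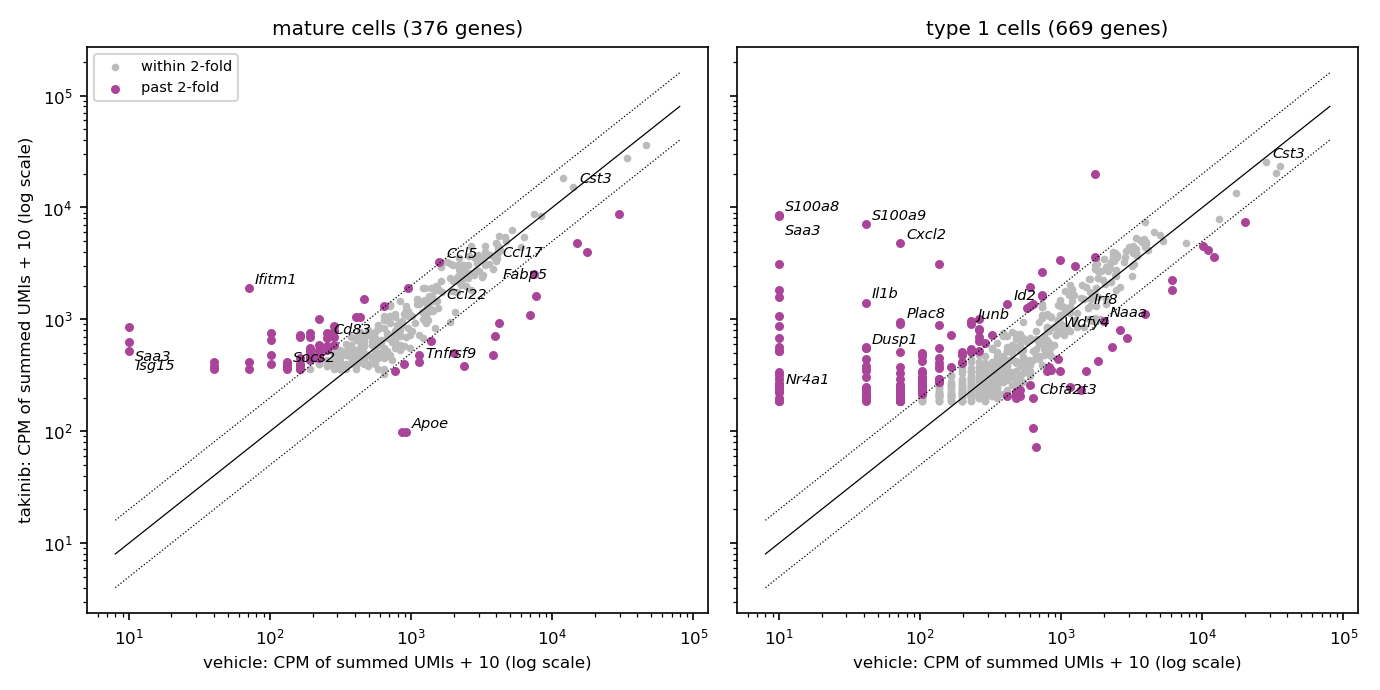
Levels in vehicle (horizontal) and takinib (vertical) for mature and type 1 cells, as CPM of summed UMIs plus 10 on logarithmic axes; the solid line marks equality, dotted lines 2-fold, and purple points genes past 2-fold. Ccl22, Ccl17 and Fabp5 lie near the line in mature cells and Irf8 and Wdfy4 in type 1 cells, whereas Saa3, Cxcl2, S100a8 and S100a9 lie far above it in type 1 cells.

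Type 1 cells had their lineage genes at similar levels in the 2 libraries. Irf8 was at 1525 CPM (1128 to 2017) in vehicle and 1252 CPM (1054 to 1477) in takinib, a log2 ratio of -0.28 (-0.76 to 0.22). Wdfy4 was at 934 and 782 CPM, Ppt1 at 1152 and 1279 CPM, Itgae at 498 and 577 CPM, and Cadm1, an adhesion molecule of the subset, at 342 and 329 CPM. Tlr3, a sensor of double-stranded RNA, was at 311 and 213 CPM. For each of these the interval of the ratio included no change. Of 21 type 1 genes listed, 16 could be compared, with a median log2 ratio of -0.06, and 2 were past 2-fold, Naaa and Id2. Over all 669 genes compared in type 1 cells, 130 (19.4%) were more than 2-fold higher in takinib and 33 (4.93%) more than 2-fold lower, with a median of 0.24. The lower genes included the mitochondrial transcripts, at log2 ratios of -2.11 to -1.41, whose share also differed between the whole libraries. Naaa was lower, at 1992 and 950 CPM, a log2 ratio of -1.06 (-1.53 to -0.60), with 17 of its 64 vehicle UMIs in 1 cell. Id2, a factor needed for the subset, was higher, at 405 CPM in vehicle and 1359 CPM in takinib, a log2 ratio of 1.72 (0.93 to 2.69), with UMIs in 5 of 8 and 18 of 18 cells. Without the S100-rich cells it stood at 1580 CPM in takinib, and in takinib B cells at 93 CPM.

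Class II accessory genes of type 1 cells were also close, while the class I list had a median below 0. Of 13 class II accessory genes, 7 could be compared, 0 passed 2-fold and the median log2 ratio was -0.00. H2-DMa was at 809 and 782 CPM and Ciita, the master regulator of class II, at 467 and 337 CPM. Of 17 class I presentation genes, 12 could be compared, with 0 higher, 1 lower (Calr, the chaperone calreticulin) and a median of -0.30. This median was -0.54 when centred on all genes and -0.21 without the S100-rich cells. Within the list, H2-K1, a class I heavy chain, was at 1868 and 995 CPM (-0.90), and Psmb8 at 529 and 639 CPM (0.27). Centred on the median of all genes, 107 genes were higher in takinib and 48 lower. Without the S100-rich cells the counts were 76 and 21, and with a filter on the mean level 30 and 21. A single cell gave over 25% of the UMIs in 64 of the 130 genes and in 19 of the 33.

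Immediate-early genes, which cells switch on within minutes of stimulation, had few UMIs in type 1 vehicle cells and more in type 1 takinib cells. Of 15 listed, 9 could be compared, and 7 were past 2-fold higher (Fos, Junb, Ier2, Ier3, Dusp1, Zfp36 and Nr4a1) and 0 lower. All 7 had under 20 UMIs in vehicle and were compared only because they reached 20 in takinib, so the count and its direction were fixed by the filter and support nothing about the list. The same held for 122 of the 130 genes called higher over all genes. Dusp1, a phosphatase that switches off MAP kinases, had 1 UMI in 8 vehicle cells and 61 UMIs in 12 of 18 takinib cells, 31.1 and 542 CPM. Nr4a1, an orphan nuclear receptor, had 0 and 26 UMIs, the latter in 10 of 18 cells at 231 CPM, at least 2.47-fold higher. Without the S100-rich cells Dusp1 was at 375 CPM and Nr4a1 at 228 CPM, Fos went from 346 to 281 CPM, Junb from 906 to 723, Ier3 from 435 to 321 and Zfp36 from 551 to 415. Ier2 then had 7 UMIs against 2 in vehicle, a log2 ratio of 0.52 in place of 1.51, within 2-fold. In mature cells, 4 of the listed genes could be compared and 0 passed 2-fold, with Dusp1 at 818 CPM in the vehicle and 527 CPM in the takinib cells. The difference between the subsets in this respect was not tested.

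Several of these genes were higher in lymphocytes of the takinib library as well. Macrophages were mixed, with Dusp1 at 513 CPM in vehicle and 679 CPM in takinib and Zfp36 at 664 and 535 CPM. Dusp1 was at 51.3 CPM in vehicle and 310 CPM in takinib B cells, and at 18.7 and 421 CPM in T cells. Ier3 was at 435 CPM in type 1 takinib cells, 473 CPM in B cells and 456 CPM in T cells, and Junb at 906, 913 and 803 CPM. Nr4a1 was at 231 CPM in type 1 cells against 130 CPM in B cells and 67.9 CPM in T cells, and it had a UMI in 55.6% of type 1 cells against 12.8% and 11.2%, at median depths of 5425, 1389 and 2298 UMIs. Ier3 and Junb in type 1 takinib cells were thus near their levels in lymphocytes of the same library, and below them without the S100-rich cells, while Nr4a1 was above them. The part that RNA from outside the cells had in these values was not tested.

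Inflammatory chemokines and cytokines showed the same spread. Cxcl2, which attracts neutrophils, had 2 UMIs in type 1 vehicle cells and 542 in takinib, 62.3 and 4814 CPM, with 39.9% in 1 cell. Without the S100-rich cells it was at 2851 CPM, and takinib B cells had 3285 CPM and T cells 2570 CPM. Ccl3 had 0 and 179 UMIs, at least 17-fold higher, with 1590 CPM, or 1071 CPM without those cells, against 690 CPM in B cells. Il1b, the inflammatory cytokine, was at 31.1 and 1403 CPM, and at 442 CPM without the S100-rich cells, below the 959 CPM of B cells. Of 16 chemokines listed, 5 could be compared in type 1 cells, and 4 were past 2-fold higher in takinib (Ccl3, Ccl4, Cxcl2, Cxcl3). These 4 had 0 to 2 UMIs in vehicle and entered only through takinib, so their direction was fixed by the filter. Saa3 was at 0 and 8366 CPM, with 71.9% of its 942 UMIs in 1 cell. Cxcl2 and Il1b in the cells without abundant S100 transcripts were therefore not above their levels in B cells.

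The other named genes of type 1 cells were sparse in vehicle. Higher in takinib were Plac8, with 2 and 106 UMIs, Rgs2, with 1 and 25, and Eif3i, Snx5 and Lilrb4a, each with 0 in vehicle and 20 to 25 in takinib. Plac8, a small cysteine-rich protein of myeloid cells and lymphocytes, had UMIs in 2 of 8 and 16 of 18 cells, 62.3 and 941 CPM, a log2 ratio of 3.72 (2.03 to 6.98), and it stood at 710 CPM without the S100-rich cells. Takinib B cells had 634 CPM. Lower in takinib were Cbfa2t3, a transcriptional corepressor, at 623 and 187 CPM (log2 ratio -1.69, -2.69 to -0.78), and Hnrnpa2b1, an RNA-binding protein, at 809 and 364 CPM (-1.13, -1.90 to -0.38). Cycling genes were scarce. All 5 UMIs of Mki67 and all 9 of Stmn1 in type 1 vehicle cells came from 1 cell, and takinib had 1 and 0 UMIs.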

How the data were processed

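The deposited matrices hold raw UMI counts; per the file headers, the vehicle matrix came from Cell Ranger 4 and the takinib matrix from version 6.1.1. The submitters' processing notes name Cell Ranger 2.1.1 and mm10. The vehicle matrix held 704261 barcodes, 470280 of them with a UMI, and the takinib matrix 34158 barcodes of at least 500 UMIs, so the latter had been filtered. Both listed 32285 genes, of which 32158 IDs were found in GENCODE M21 (GRCm38).

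Cells were kept with at least 1000 UMIs, 500 genes and at most 20% mitochondrial UMIs. No correction for free RNA was made. Doublets were called with Scrublet in scanpy 1.11.5 and removed only as an alternative: the automatic threshold marked 314 vehicle cells (3.18%), and in takinib, where it marked 0.00373%, the highest 6% of scores were taken (1621 cells with ties). It called 1 vehicle and 3 takinib members. UMIs were summed per subset and library. Genes of the rule were left out of comparisons, and genes with at least 20 summed UMIs on either side were compared and called past 2-fold. A gene that entered through the side where it was high had to differ.

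Intervals are exact at 95% (Clopper-Pearson for shares, Poisson for CPM, conditional Poisson for ratios). For comparison, macrophages had at least 10 C1q UMIs and B cells at least 2 Cd79a UMIs, both with class II at or over the limit and no dendritic UMI, and T cells had at least 2 Cd3e UMIs. Named genes were the 8 highest and 8 lowest ratios among called genes where no cell gave over 25% of UMIs, leaving out ribosomal, mitochondrial, immunoglobulin, haemoglobin and unnamed genes, plus genes of 20 lists. The members, lists and rule were chosen with earlier results of these data known. The scripts were tested on simulated data. Python 3.11.15, numpy 2.4.6 and scipy 1.17.1 were used, and 13 planned and 4 added alternatives were tried. Values of some genes are not reported here.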

Additional observations from a re-analysis of the deposited data

How the results depend on the processing

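No paired analysis was possible because each group has 1 library. The counts of genes past 2-fold are given in the order mature higher and lower in takinib (54 and 19), type 1 higher and lower in takinib (130 and 33), and mature higher and lower than type 1 in both libraries (29 and 17). Of 5 lists with a median in mature cells all 5 were above 0 in takinib, and of 8 in type 1 cells 4 were.

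Thinning, the strictest change of depth, moved several values. With cells thinned to 1000 UMIs, dendritic cells were 0.162% of vehicle and 0.0635% of takinib cells, mature cells 75% and 64.7% of them, type 1 cells 12.5% in vehicle, mature genes higher 13, lists above 0 in mature cells 0, and the mature log2 ratio of Clic1 was -4.70. With 2000 UMIs and 1000 genes per cell, takinib dendritic cells were 0.275% and genes higher in mature than type 1 cells 17. With a mitochondrial limit of 10% the latter were 16, and with doublets removed type 1 genes higher were 84.

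Without any C1q UMI, takinib dendritic cells were 0.105%, mature genes higher 30, type 1 genes 59 and 21, genes higher in mature than type 1 cells 17, and mature lists above 0 were 3. Without UMIs of other lineages these values were 0.0933%, 32, 81 and 19, 13, and 3. With no minimum count, the counts were 3102 and 1817, 2326 and 2130, 637 and 705, and lists above 0 were 14 in mature and 11 in type 1 cells.

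The alternatives that follow were added after the data were seen. With a class II limit of 0.5%, vehicle dendritic cells were 0.385%, mature genes 97 and 71, genes higher in mature than type 1 cells 55, and the mature log2 ratio of Ifitm3 was -0.91. With a limit of 0.1%, dendritic cells were 0.729% of vehicle and 0.243% of takinib cells, mature cells 80.6% and type 1 cells 11.1% in vehicle, mature genes 207 and 217, genes of mature against type 1 cells 187 and 34, and mature lists above 0 were 12. Without S100-rich or haemoglobin-rich cells, type 1 genes were 76 and 21. With a filter on the mean level of 500 CPM, mature genes higher were 10, type 1 genes 30 and 21, genes of mature against type 1 cells 16 and 10, and type 1 lists above 0 were 0. Fewer cells or genes entered under the stricter settings. The cause of the 2 reversed ratios was not tested. Of the ratios of named genes over the alternatives, 713 stayed past 2-fold on the same side and 33 kept their direction within 2-fold. Type 1 results could not be computed after thinning, with 2 vehicle type 1 cells left, nor gene results with female vehicle cells only, of which 2 were dendritic. Depth limits every gene named: 8 to 18 cells stand behind a level.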
